A study of Drosophila melanogaster with 2 samples.

Results

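The 7 genes described here are ush, cbt and the GATA factor genes pnr, srp, grn, GATAd and GATAe of Drosophila melanogaster, read in a chromatin immunoprecipitation and sequencing (ChIP-seq) study of the homeodomain protein Hmx. They were chosen by name after ush had been selected on its signal, since ush holds one of the strongest nuclear regions of the data. The values of that region are therefore given as a description. All 7 were found among 13945 protein-coding genes, and among 18164 genes in all, on the 6 main chromosome arms.

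The single group consisted of whole embryos of both sexes, 0 to 24 h old, of the strain Hmx-MiMIC-GFP. In this line an eGFP exon placed in an intron of Hmx makes a Hmx-eGFP fusion protein, and an antibody against GFP was used to pull down its chromatin. There were 2 biological replicates, labelled 2 and 3, and no second condition. No untagged level stands beside these values. Per the file records the deposited regions were called against a control alignment. The sources used here do not state what that control was, and it was not read separately. A whole embryo mixes many cell types and ages, and a region bound in few cells and a region bound weakly in many cannot be told apart.

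GATA factors are zinc-finger proteins that bind DNA at sites with the core letters GATA. In the fly, Pannier (pnr) acts in the dorsal ectoderm, the heart and the sensory bristles, Serpent (srp) in blood cells, fat body and endoderm, and GATAe in the midgut. U-shaped (ush) is the fly member of the FOG family, zinc-finger proteins that bind GATA factors and change their activity, and it is best known as a partner of Pannier and Serpent. Cabut (cbt) is a zinc-finger transcription factor of the Krüppel-like family, known from dorsal closure and from the response to dietary sugar, and its gene lies inside ush.

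The authors deposited lists of regions without read counts, so the depth is unknown and no counting interval can be given. Each replicate and the pool of both had a list of 30000 regions, in which weak entries may be background. A further list is labelled as thresholded by the irreproducible discovery rate (IDR), a procedure that compares ranks between replicates. It held 1607 regions, which were the 1607 strongest of the pooled list, and 1595 of them were nuclear. The signal of a region is the authors' caller value, which ranks regions within a list but is not on one scale across lists. Ranks are given among nuclear regions and coordinates on dm6. A region was assigned to a gene when its summit, the base the caller marked as highest, lay in the gene body or up to 1 kb upstream.

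The sequences shown are the 201 bases around the 3 IDR summits in ush, around the strongest ush summit below the IDR set, and around the strongest summit of any GATA factor gene, in grn. Each is the plus strand of the dm6 assembly, 5′ to 3′, read from its RefSeq copy, with the summit at the central base. Capitals mark the GATA core GATAA, which on the other strand is read as TTATC, and the word TAGTAA, which on the other strand is read as TTACTA.
ush first intron, strongest region, chr2L:480984-481184: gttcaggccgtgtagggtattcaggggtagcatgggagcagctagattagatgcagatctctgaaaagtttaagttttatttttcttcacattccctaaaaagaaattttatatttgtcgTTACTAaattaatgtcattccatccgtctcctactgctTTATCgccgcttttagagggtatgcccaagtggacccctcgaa
ush first intron, upstream of cbt, chr2L:479979-480179: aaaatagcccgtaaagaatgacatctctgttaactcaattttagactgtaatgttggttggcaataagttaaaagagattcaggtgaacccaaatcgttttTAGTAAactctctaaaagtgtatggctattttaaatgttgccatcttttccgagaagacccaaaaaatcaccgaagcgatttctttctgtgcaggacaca
ush, upstream of its last 2 starts, chr2L:522078-522278: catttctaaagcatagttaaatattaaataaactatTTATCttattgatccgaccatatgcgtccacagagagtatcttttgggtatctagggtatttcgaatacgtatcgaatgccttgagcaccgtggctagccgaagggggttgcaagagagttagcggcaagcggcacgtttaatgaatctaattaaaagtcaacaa
ush, strongest region below the IDR set, chr2L:516143-516343: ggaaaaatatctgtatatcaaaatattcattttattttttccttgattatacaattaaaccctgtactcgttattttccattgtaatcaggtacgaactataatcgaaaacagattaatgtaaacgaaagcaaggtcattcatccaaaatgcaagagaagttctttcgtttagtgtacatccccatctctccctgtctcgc
grn intron, chr3R:8176482-8176682: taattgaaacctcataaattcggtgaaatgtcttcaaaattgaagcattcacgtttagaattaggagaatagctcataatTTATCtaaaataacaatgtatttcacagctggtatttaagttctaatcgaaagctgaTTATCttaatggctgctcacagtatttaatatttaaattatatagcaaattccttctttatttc

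The gene ush (FBgn0003963), on the plus strand of 2L at 476220 to 540560, is 64.3 kb long and has 5 annotated transcripts from 4 starts, at 476220, 490835, 523466 and 523736. Its strongest region, at 480915 to 481271, had a signal of 967.5 in the pooled list, 513.6 in replicate 2 and 452.0 in replicate 3. It ranked 2 in each of the 3 lists. The summit at 481084 lay in the first intron, 4864 bp downstream of the first start and 9751 bp upstream of the next. The replicate 2 summit was 29 bp to the left of the pooled one and the replicate 3 summit 1 bp to the right, so both replicates placed the region near the pooled summit.

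The regions beside it in rank give the scale. The pooled region ranked 1, on 3L at 19590435 to 19590813, had a signal of 1041.0, and the one ranked 3, on 2L at 6612531 to 6612891, had 866.9. Of 6411 protein-coding genes with a region in both replicates, the gene whose strongest region was most like that of ush was CG14100, with a signal of 587.8 in replicate 2 and 455.0 in replicate 3. CG11050 came next with 439.1 and 423.3, then Ugalt and eIF2Bbeta, which share a region, with 397.1 and 413.2. Art3 and mRpS10, which also share a region, tied behind them with 407.2 and 339.7. Likeness was measured as the absolute difference in log10 signal summed over the 2 replicates, and ran from 0.061 for CG14100 to 0.225 for Art3 and mRpS10.

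Another IDR region was assigned to both ush and cbt. The gene cbt (FBgn0043364) lies at 476446 to 479688 on the minus strand, in the first intron of ush, a gap of 13.2 kb between annotated ush exons, and its 3 transcripts share a start at 479688. The region at 479861 to 480296 had a signal of 192.2 in the pooled list, 108.7 in replicate 2 and 84.2 in replicate 3. It ranked 239 in the pooled list, 227 in replicate 2 and 274 in replicate 3, and it was the one region of cbt in each list. Its summit at 480079 was 391 bp upstream of the cbt start and 3859 bp downstream of the first ush start. The strongest ush summit was 1396 bp upstream of the same cbt start, beyond the 1 kb used for assignment. Position alone does not show whether either region belongs to ush or to cbt.

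The third IDR region of ush, at 521960 to 522395, was much weaker, with a signal of 84.5 and rank 1348. Its summit at 522178 lay 1288 and 1558 bp upstream of the last 2 ush starts, in a gap of 32.1 kb between annotated exons. Replicate 2 had a signal of 43.4 there, at rank 1625, with its summit 83 bp to the left of the pooled one. Replicate 3 had a signal of 46.2, at rank 1100, with its summit 29 bp to the right. In replicate 2 it was therefore outside the 1607 strongest regions. The next ush region, at 516025 to 516460 in the same gap, was just outside the IDR set, with a signal of 75.9 and rank 1697, where the weakest nuclear IDR region had 78.4. It had a signal of 37.1 in replicate 2 and 39.2 in replicate 3, close to those of the region just inside. No gene other than ush and cbt had an annotated start within 5 kb of the 3 IDR summits.

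**Figure D1:**
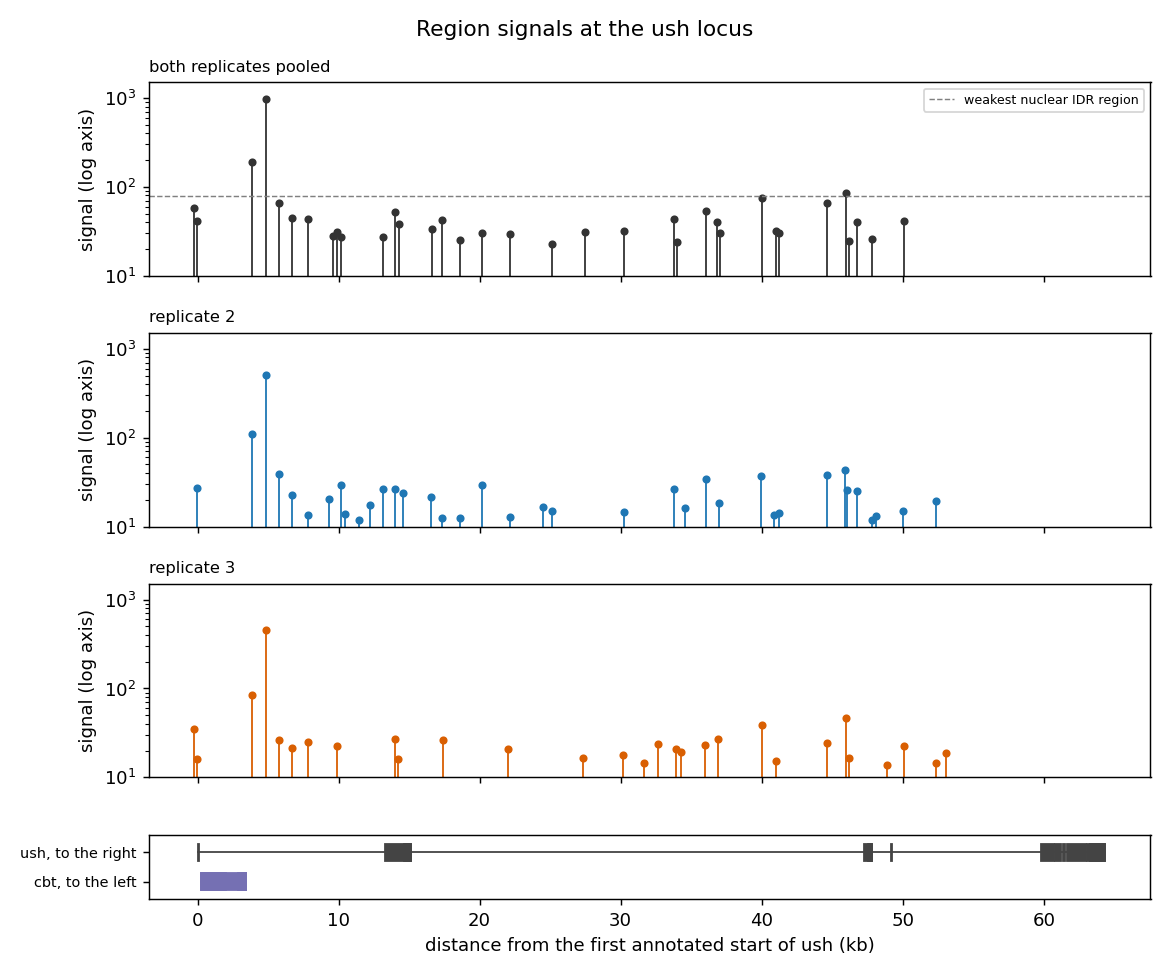
Signal of every region at the ush locus (log axis) against the distance of its summit from the first ush start in kb, in the pooled list, replicate 2 and replicate 3, with the exons of ush and cbt as boxes below. The same tall region, with a signal of 967.5 in the pooled list, 513.6 in replicate 2 and 452.0 in replicate 3, stands beside the region upstream of cbt in all 3 panels; the dashed line is the weakest nuclear IDR region, 78.4.

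An IDR summit was found at 2 of the 7 genes, ush and cbt, against 12.2% of all protein-coding genes (1700 of 13945). Because ush was selected on this measure and cbt shares its region, nothing is read from that count. Of the 307 protein-coding genes of 50 kb or more, 32.2% had an IDR summit. With 3 summits ush was among the 0.394% of protein-coding genes with 3 or more, of which 18 had more than 3. That share is over genes of all lengths, and it was not computed for those of 50 kb or more. The summit shared with cbt and the one on which ush was selected are among the 3, so nothing is read from this share either. None of the 5 GATA factor genes, which are 5.45 to 34.1 kb long, had an IDR summit, against 20.4% of the 2942 protein-coding genes of 5 to 35 kb. At a share of this size, a count of 0 among 5 genes is not a result about them.

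Counts from the strongest regions of each replicate alone are given as a description. The pooled list was made from both replicates, and ush was selected on its signal. Among the 1607 strongest regions of replicate 2, ush had 2 summits and cbt 1, where 12.6% of protein-coding genes had any. Among those of replicate 3, ush had 3 and cbt 1, where 11.8% of protein-coding genes had any. The 5 GATA factor genes had 0 in both, which again is not a result about them.

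**Figure D2:**
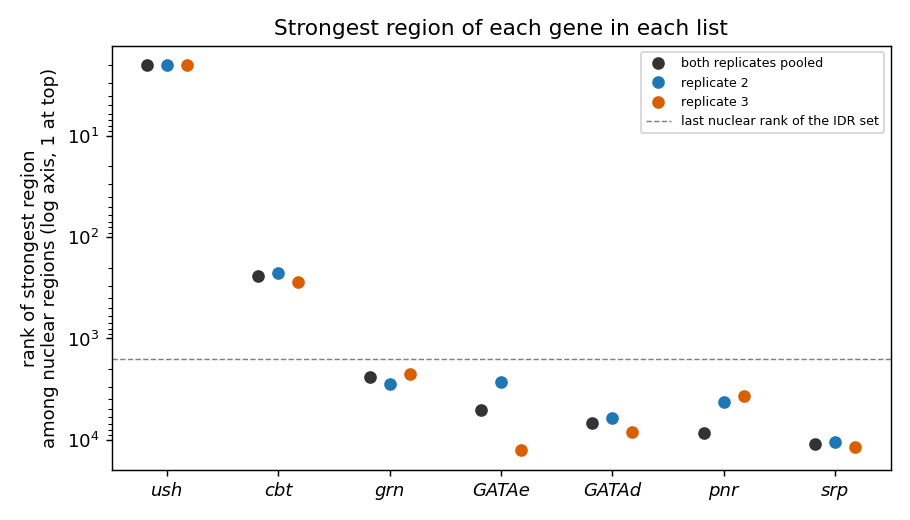
Rank of the strongest region of each gene among nuclear regions (log axis, rank 1 at the top) in the pooled list, replicate 2 and replicate 3. The gene ush is at rank 2 in all 3 lists and cbt between 227 and 274, whereas the 5 GATA factor genes lie below the dashed line, which marks the last nuclear rank of the IDR set, 1595.

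At the 3 IDR regions of ush the replicates were in similar proportion. The ratio of replicate 2 to replicate 3 signal was 1.14 at the strongest region, 1.29 at the region upstream of cbt and 0.938 at the third. Over the 1547 nuclear IDR regions matched in both replicates, by summits no more than 250 bp away, the median ratio was 1.13, with quartiles of 0.922 and 1.36. All 3 ush regions lay inside these quartiles. Other IDR regions differed more, with ratios from 0.175 to 6.4, and 48 of the 1595 were not matched in both replicates.

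**Figure D3:**
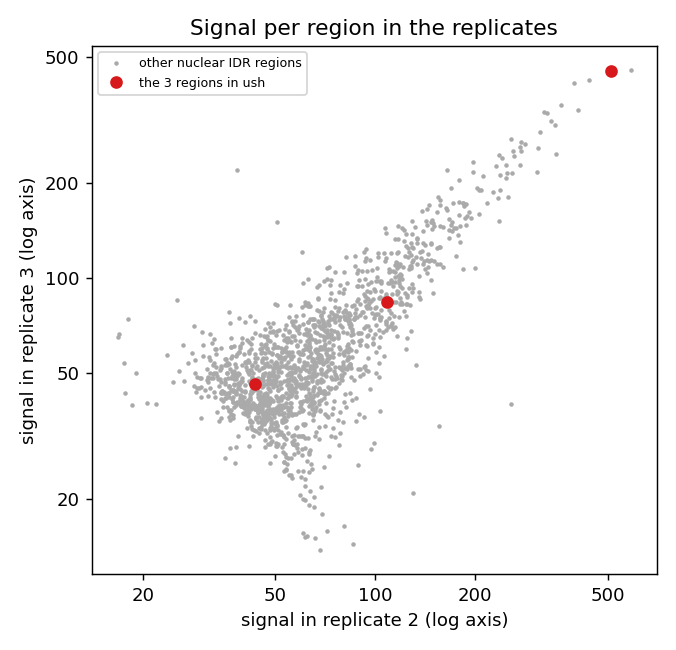
Signal in replicate 3 against signal in replicate 2 (both log axes) for the 1547 nuclear IDR regions matched in both, with the 3 regions in ush as large points. The ush points lie in the cloud, one at its strong end (513.6 in replicate 2, 452.0 in replicate 3) and one at its weak end (43.4 and 46.2).

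Below the IDR set ush held many weaker regions. With the 3 IDR summits, the pooled list had 35 summits at its locus, or 5.36 per 10 kb, against 2.24 per 10 kb over the arms. Among the 7 genes the short GATAd had a higher density, 6.2 per 10 kb from 4 summits. The rest had 1.79 to 3.14 per 10 kb. The 307 protein-coding genes of 50 kb or more had a median of 2.09 per 10 kb, with quartiles of 1.21 and 3.2, and 11 of them had more than ush. Replicate 2 had 37 summits at ush and replicate 3 had 29. Of the 35 pooled summits, 31 were in introns, 2 in exons outside coding sequence, 2 upstream of the first start and 0 in coding exons. A region with its summit 220 bp upstream of the first ush start lay in the body of the neighbouring gene MED15, which encodes a Mediator subunit and ends 49 bp before ush begins.

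The 32 ush regions below the IDR set had pooled signals from 23.0 to 75.9, with a median of 32.8, against a median of 30.8 for all 28393 nuclear regions of this class. After the region with 75.9 the strongest had 65.9, with 37.9 in replicate 2 and 24.3 in replicate 3, and lay 2632 bp upstream of the start at 523466. The next had 65.5, with 38.8 in replicate 2 and 26.0 in replicate 3, and lay 5808 bp downstream of the first start. The stronger of the 2 regions before the first start had 57.6, with 34.9 in replicate 3. The replicate 2 summit matched to it, with 27.1, was 162 bp away. That summit was nearer, at 41 bp, to the other region, which had 41.6. With the IDR regions, 7 of the 35 had a pooled q value below 5%, and for the strongest of them it was 0.653%.

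A summit of each replicate lay within 250 bp for 21 of the 32 weaker ush regions, or 65.6%, against 44.0% of all nuclear regions below the IDR set. Within 100 bp it was 10 of the 32, or 31.2%, against 28.2%, so the ush share was near that of all regions at the narrower distance. Some of these ush regions overlap and share a replicate summit, so they are not independent of each other. Across all 24 ush regions found in both replicates, the signals of the replicates had a Spearman rho of 0.53. Across the 21 of them below the IDR set rho was 0.297. These points share their libraries and are given as a description: beyond the IDR regions the order of the ush regions was only loosely shared.

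The GATA factor genes held weak regions only. All 5 had a pooled summit, where 55.9% of protein-coding genes and 81.9% of those of 5 to 35 kb had one. Their 25 pooled regions had signals from 22.4 to 64.5, with a median of 35.8, and ranks from 2400 to 29914. For 13 of the 25, or 52.0%, each replicate had a summit within 250 bp, against 44.0% of all nuclear regions of this class, and within 100 bp it was 9, or 36.0%, against 28.2%. Some of these regions, in grn, overlap and share a replicate summit, so they are not independent of each other. Regions of this strength may be background, and their values are given as listed.

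The gene grn (FBgn0001138), whose product Grain is known from neuronal identity, is on the minus strand of 3R at 8147368 to 8181444 and had the strongest of these regions. The region at 8176364 to 8176799, in an intron 4862 bp downstream of its start, had a signal of 64.5 in the pooled list, 34.3 in replicate 2 and 34.8 in replicate 3. It ranked 2400 in the pooled list, 2789 in replicate 2 and 2220 in replicate 3. With a q value of 2.18% it was the one pooled region of the 5 genes below 5%. Of the 11 pooled regions of grn, 8 were matched in both replicates, among them one 358 bp downstream of the start with a signal of 53.6. The replicate 3 summit matched to that region was 231 bp away and was also the match of an overlapping region. Another overlapping pair in grn likewise shared its replicate summits, so the matches are not independent of each other. The nearest IDR summit was 27.2 kb outside the gene.

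The genes srp, GATAe and pnr are neighbours on the plus strand of 3R, within 55.6 kb from 15986152 to 16041796, with 5.02 kb between srp and GATAe and 6.95 kb between GATAe and pnr. The whole span had 16 pooled summits, or 2.88 per 10 kb, against 2.24 per 10 kb over the arms, and 0 IDR summits. The nearest IDR summit, with a signal of 100.1, was 57.2 kb beyond pnr.

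In GATAe (FBgn0038391), at 16009105 to 16019133, the strongest pooled region had a signal of 47.6 and lay in an intron 6079 bp downstream of the first start. Replicate 2 had a signal of 34.7 there, at rank 2710, and replicate 3 had no summit within 250 bp. The strongest GATAe region of replicate 3 was another one, with a signal of 19.8 and rank 12746. The strongest GATAe value thus came from replicate 2.

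In pnr (FBgn0003117), at 16026079 to 16041796, the replicates placed their strongest regions apart. That of replicate 3, with a signal of 29.4 and rank 3679, had its summit 199 bp downstream of an annotated start, where replicate 2 had no summit within 250 bp. That of replicate 2, with a signal of 28.7 and rank 4216, was in an intron, where replicate 3 had none. The strongest pooled pnr region, in an exon outside coding sequence, had a signal of 39.3, with 20.5 in replicate 2 and 20.6 in replicate 3.

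The gene srp (FBgn0003507), at 15986152 to 16004085, had the lowest pooled value of the 7. Its strongest pooled region had a signal of 35.8 and rank 10926. The strongest srp region of replicate 2 had 19.8 and that of replicate 3 had 20.4, at different places. For 0 of its 4 pooled regions did both replicates have a summit within 250 bp.

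GATAd (FBgn0032223), at 10333734 to 10339185 on the plus strand of 2L, is the shortest of the GATA factor genes. Its strongest pooled region, 105 bp downstream of the first start and 75 bp upstream of the next, had a signal of 42.6 and rank 6810. It had 23.0 in replicate 2 and 17.0 in replicate 3. In both replicates the strongest GATAd region was another one, with 24.8 in replicate 2 and 22.8 in replicate 3. Its pooled summit, with a signal of 39.3, lay in an intron 1551 bp downstream of the first start. Of the 4 pooled regions of GATAd, 3 were matched in both replicates. The nearest IDR summit was 33.8 kb away.

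By their strongest pooled signal the genes were ordered ush, cbt, grn, GATAe, GATAd, pnr and srp. Both replicates put ush first and cbt next, well apart from each other and from the rest. The order of the others did not hold. GATAe, with 34.7, was above grn, with 34.3, in replicate 2, and with 19.8 it was below all the other genes in replicate 3.

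**Figure D4:**
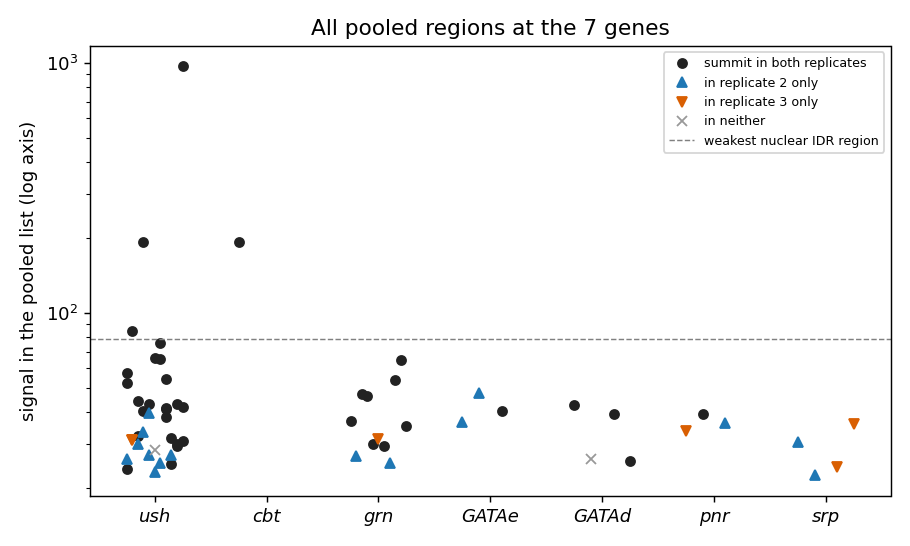
Signal of every pooled region at the 7 genes (log axis), with symbols for a summit of both replicates within 250 bp, of one or of neither; points are spread sideways for legibility. The GATA factor genes reach 64.5 at most, under the dashed line at 78.4, the weakest nuclear IDR region, and no srp region has both replicates.

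The base composition at the pooled summits differed between the IDR regions of ush. The window of 50 bp on either side of the strongest summit had a G+C content of 28.7%, with 39.6% in the window 300 bp to the left and 53.5% in that to the right. Upstream of cbt the summit window had 32.7%, with 62.4% to the left and 58.4% to the right. The third summit had 50.5%, with 42.6% to the left and 40.6% to the right. The mean over all nuclear IDR regions was 31.1% at the summit, 44.3% to the left and 43.6% to the right. The first and the second pooled summits thus lay in a local dip in G+C and the third did not, where 98.6% of nuclear IDR windows had a G+C content at or below its own. At the third region the value turned on the list: it was 31.7% at the replicate 2 summit and 51.5% at the replicate 3 summit. At the other regions the replicate summits had 28.7% to 33.7%.

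**Figure D5:**
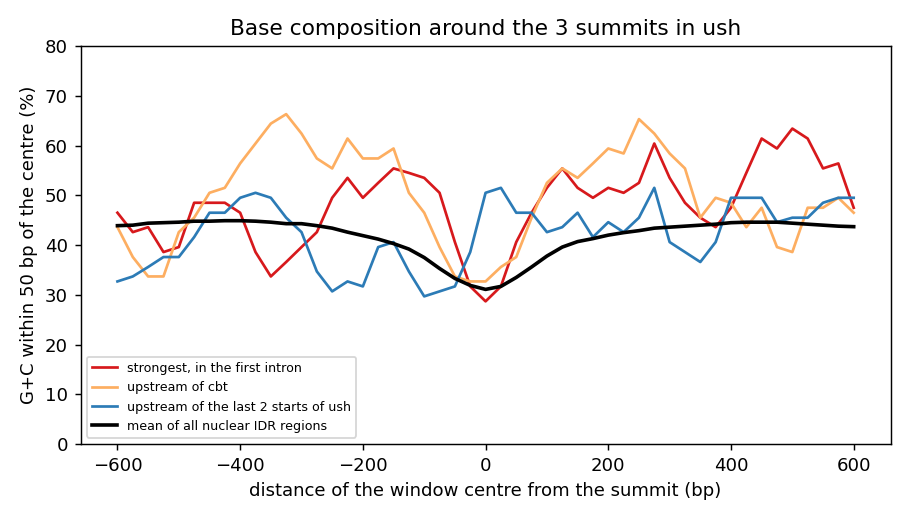
G+C content within 50 bp of a window centre (%) against the distance of the window centre from the summit in bp, for the 3 IDR regions in ush and as the mean of all nuclear IDR regions. The strongest region (28.7% at the summit) and the one upstream of cbt (32.7%) dip at the pooled summit like the mean (31.1%), whereas the third has 50.5% there and its own dip to the left, where the replicate 2 summit lies (31.7%).

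The weaker regions had a similar composition in ush and in the GATA factor genes. The median G+C content of the summit windows was 34.7% over the 32 ush regions and 36.6% over the 25 regions of the GATA factor genes, against 32.7% over all nuclear regions below the IDR set. At the strongest summit of each GATA factor gene it ran from 28.7% in grn to 55.4% in srp.

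Windows around the summits were searched for 6 words on both strands, of which GATAA is the GATA core and 4 are homeodomain-type words. A match says only that the letters are there. GATAA was in 0 of the 3 windows of 50 bp on either side of the IDR summits in ush, where 23.5% of nuclear IDR windows held it. In 201 bases it was 58 to 62 bp to the right of the strongest summit, as TTATC, and 60 to 64 bp to the left of the third, where 40.5% of nuclear IDR windows held it. It was absent from the 201 bases upstream of cbt. The printed grn window had it on either side of the summit, 20 to 16 bp to the left and 37 to 41 bp to the right. Over the weaker regions GATAA was in 21.9% of the 32 in ush and 32.0% of the 25 in the GATA factor genes, against 23.8% of all.

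Of the homeodomain-type words, TAATTA was in 11.2% of nuclear IDR windows, TAATTG was in 12.2%, TAAGTG was in 5.45% and CAAGTG was in 4.01%, and none of the 4 was in the same windows of the 3 ush summits. In the 201 printed bases, CAAGTG was 84 to 89 bp to the right of the strongest summit, where 9.78% of nuclear IDR windows held it. TAATTA was 84 to 89 bp to the right of the third, where 19.3% held it. TAGTAA, a word picked after these sequences and earlier results were seen, was 20 to 25 bp to the right of the strongest summit, as TTACTA, and 1 to 6 bp to the right of the summit upstream of cbt. Of all nuclear IDR windows of this size, 8.84% held it. As the word was picked with the ush windows in view, its presence in them is not a result. By rank, 6.67% of the 15 strongest nuclear IDR windows and 12.9% of the next 85 held it. It was in 9% of the next 400 and 8.49% of the last 1095. Over the weaker regions TAGTAA was in 6.25% of the 32 in ush and 4.0% of the 25 in the GATA factor genes, against 6.52% of all. TAGTAA was not in the window of the third ush summit.

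Other genes linked to these factors were read from 3 lists, and 8 of their 46 genes (17.4%) had an IDR summit, against 12.2% of all protein-coding genes. The lists were chosen with earlier results of these data known, so their counts are given as a description. Of 14 partners of Ush and of GATA factors, 2 had one, or 14.3%. Ssdp, a partner of the LIM-domain cofactor Chip, had a signal of 94.5 in an intron, with 57.7 in replicate 2 and 37.2 in replicate 3. The gene da, which encodes the E protein that pairs with the Achaete and Scute proteins, had 110.5 at 132 bp upstream of its start, with 61.9 in replicate 2 and 46.5 in replicate 3.

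Of 20 genes of tissues in which GATA factors act, 1 had an IDR summit, or 5%, against 12.2% of all protein-coding genes. It was Mef2, a muscle transcription factor gene, with 93.9 in the pooled list, 49.3 in replicate 2 and 38.6 in replicate 3. The list also held blood cell genes such as gcm, Hml and PPO1, heart genes such as Hand and the gut gene fkh, which had none. At a share of this size, a count of 1 among 20 genes is not a result about these tissues.

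Of 12 partners and relatives of Cbt, 5 had an IDR summit, or 41.7%, against 12.2% of all protein-coding genes. The share was 20.4% of those of 5 to 35 kb, among which are dar1, sd and Sin3A. It was 32.2% of those of 50 kb or more, among which is luna at 138.0 kb. As this list was chosen with earlier results of these data known, the count of 5 among 12 is not a result about Cbt partners. Sin3A and dar1 were the only linked genes with a summit among the 803 strongest IDR regions, counted with mitochondrial regions included. Among nuclear regions alone da, at rank 798, would also fall within that number. Sin3A, which encodes a corepressor, had 2 IDR summits. The stronger had a signal of 130.4, with 70.2 in replicate 2 and 63.8 in replicate 3. The Krüppel-like factor genes dar1 and luna had 116.9 and 107.9, both in introns, with 52.1 and 60.3 for dar1 and 55.9 and 50.4 for luna in replicates 2 and 3. The gene sd, which encodes the DNA-binding partner of the Hippo pathway coactivator Yorkie, had 96.8 at 475 bp upstream of a start, with 48.6 in replicate 2 and 47.2 in replicate 3. The gene yki, which encodes Yorkie, had 96.4 at 375 bp upstream, with 67.6 in replicate 2 and 31.1 in replicate 3.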

How the data were processed

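The data were region lists from anti-GFP ChIP-seq of 2 biological replicates of Hmx-eGFP embryos, one group. The authors' deposited signal per region and −log10 q value were used as given, and per the file records the lists are on dm6 and were made against a control alignment. Not given in the sources used here are the IDR threshold, the caller, the aligner and the exact control. Lists on dm3 were not used. Depth is unknown.

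Summits were assigned to Ensembl release 115 genes, without transposable elements, in the gene body or 1 kb upstream. Ranks left out mitochondrial regions. A replicate matched where its summit lay within 250 bp. Words and G+C content were read within 50 bp of each summit.

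The text names the 7 genes, the listed genes with an IDR summit, genes with a start within 5 kb of an IDR summit of the 7, the neighbours of ush in rank and the 5 genes most like ush, with ties. Members and lists were chosen with earlier results of these data known; the gene length classes and TAGTAA were chosen after values were seen. MED15 was named after its region was seen. No test was run, as there was 1 group. The antibody is labelled Hmx in one field and anti-GFP in another. Scripts (Python 3.11.15, numpy 2.4.6, pandas 2.3.3, scipy 1.17.1, matplotlib 3.10.9) were checked on made-up data.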

Additional observations from a re-analysis of the deposited data

How the results depend on the processing

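Of 37 values recomputed under an alternative, 25 did not move and 12 moved. A count had to change by over 1.5 times to be called moved. The rank of ush had to change by more than the SD of its replicate ranks. As ush ranked 2 in both replicates, any change of its rank was called moved. Counting by gene body alone left 1 of the 7 genes with an IDR summit, ush, and 5 of the linked genes. Counting summits within 1 kb of a start left 1 gene, cbt, with 1 summit, and 4 of the linked genes. Pooled regions with a q value under 5% gave 8 summits at the 7 genes, against 3 IDR summits and 60 pooled ones. They gave 18 of the linked genes. The 803 strongest IDR regions, counted with mitochondrial regions included, left 2 linked genes. For the counts of genes under these settings no share of all protein-coding genes is given, so nothing is read from them. The rank of ush was 14 with mitochondrial regions included. A summit of both replicates within 100 bp, in place of 250 bp, was found for 22 of the 60 pooled regions, against 37. The GATA core was in 2 of the 3 windows at 100 bp either side. With the strongest 1607 regions of one replicate in place of the IDR set, the 7 genes had 3 summits without replicate 2 and 2 without replicate 3, at 2 genes in each case, 2 was the rank of ush, and 9 and 12 linked genes had one. Those linked genes were 19.6% and 26.1% of all linked genes, against 11.8% and 12.6% of all protein-coding genes. The replicate lists had 53 and 64 summits at the 7 genes.

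No paired analysis was possible because there was 1 group and no comparison between groups. Unknown depth leaves the weaker regions without a counting error.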

Other observations

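The IDR set held 2 regions within 10 kb of ush outside its locus, both before its first start and picked after their values were seen. The region at 470565 to 471000 on 2L had a signal of 119.1 and rank 679, with 47.0 in replicate 2 and 65.3 in replicate 3, and its summit was 5.44 kb before ush and 772 bp downstream of the start of CG4297. The region at 472307 to 472742 had a signal of 100.6 and rank 961, with 65.7 in replicate 2 and 38.0 in replicate 3, and its summit was 3.69 kb before ush and 325 bp upstream of the CG4297 start. The replicates differed in which of these regions was the stronger.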
